A study of Mus musculus with 20 samples.

Results

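Collagens are the main structural proteins of the extracellular matrix, and the 39 collagen genes described here were taken by symbol from the 31053 genes of the count tables, where each matched 1 row. By the kind of polymer their chains build, 10 members were fibrillar, 8 belonged to the basement membrane, 6 formed beaded filaments, 6 were fibril-associated, 3 built short-chain networks, 3 were transmembrane, 1 formed anchoring fibrils and 2 were of other kinds. Their levels were measured by single-cell RNA sequencing of interscapular brown adipose tissue (iBAT), a heat-producing fat depot of the mouse. Cells were freed with collagenase and depleted of blood lineage cells with magnetic beads, and 10 such Lin- libraries, each from a pool of 3 to 4 mice, are described. The Lin+ libraries were not used here.

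The C57BL/6J mice were males of 8 to 14 weeks. Each treatment gave 2 libraries. RT mice stayed at room temperature (24 °C in the labels), COLD mice were housed singly at 6 °C over 4 days, and CL mice, kept at colony temperature, carried an osmotic pump that released 0.75 nmol per hour of CL316,243, an agonist of the beta 3 adrenergic receptor, over the same number of days. The mice of the Adrb1 line were Adrb1 fl/fl females of the same age range that carried (KO) or lacked (WT) Pdgfra-CreER, which acts in Pdgfra-expressing stromal cells. All had received tamoxifen, and RT and COLD gave 1 library for each genotype. The RT libraries of that line were made with 10x kit version 3 and all others with version 2, so in that line kit and temperature cannot be told apart.

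Collagen chains wind around each other in helical trimers after hydroxylation and glycosylation of their residues in the endoplasmic reticulum. Types I, III and V assemble into the fibrils that give connective tissue its tensile strength, type IV forms the sheet of basement membranes around adipocytes, vessels and Schwann cells, and type VI forms beaded filaments between the sheet and the fibrils. In adipose tissue the stromal cells, which include the progenitors of adipocytes, are known as the main makers of fibrillar collagen.

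Of 89637 barcodes, 66339 passed the limits on mitochondrial UMIs, total UMIs and detected genes, with a median of 1204 to 3881 UMIs (unique molecular identifiers, which count captured transcripts) per cell and library. The libraries shared at most 2.04% of the barcodes of the smaller library of a pair. The second RT library stood apart, since 6171 of its 22072 barcodes were kept and 72.0% lay above the mitochondrial limit, against 2.89% to 41.3% in the others. The medians of the main comparisons in ASC1-like, ASC2-like, ASC3-like, VEC-like, mural-like and Schwann-like cells are also given without it where they moved. The values of Cthrc1-high cells and of the genes that are no collagens are not. Cells were clustered without any collagen gene and the clusters were named from marker lists as adipose stromal cells (ASC1-like, ASC2-like and ASC3-like), Cthrc1-high stromal cells, vascular endothelial (VEC-like), mural-like, Schwann-like, perineurial-like and immune-like cells, and a Cilp/Thbs4-high group. Levels are CPM, the UMIs of a gene as a share of all UMIs of the class in a library, scaled to 1000000. The tags were read at the 3′ end, so a transcript counts as 1 UMI whatever its length, and CPM were not divided by gene length.

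ASC1-like cells were made of 2 clusters, and their mixture differed between treatments. The Smoc2 cluster, led by Smoc2, Cxcl14 and Blnk, had all 10 ASC1 markers raised, 5 of them among its 10 leading genes. The Cxcl9 cluster, led by Cxcl9, Cxcl10 and Ccl2, held 3.65% and 5.45% of the ASC1-like cells in RT, 81.0% and 87.1% in COLD and 49.8% and 28.5% in CL in C57 mice. It had 1 of 10 ASC1 markers raised and none among its 10 leading genes, against 2 of 8 Cthrc1-high markers raised and 1 (Tnc) among the leading genes, so that by its own markers it could not be named ASC1-like. It was joined to the class because 99.3% of its cells fell into 1 cluster with most of the Smoc2 cluster at resolution 0.5, where 8 of 10 ASC1 markers were raised. Changes over both clusters together therefore compare mixtures of unlike cells, and those within each cluster are given before them. Over all ASC1-like cells the summed level of the 10 ASC1 markers was 14677 and 17949.5 CPM in RT, 3508 and 3436 in COLD and 4096 and 8327 in CL. That of the 8 Cthrc1-high markers was 87.4 and 111 in RT, 1349.6 and 1330.0 in COLD and 949 and 478 in CL. That of the proliferating markers was 13.4 and 23.5 in RT and 276 and 214 in COLD, and that of the genes of differentiating adipocytes 362 and 147 and 1820.0 and 1900.3. The VSMC markers summed to 58.6 and 31.3 in RT and 320 and 156 in COLD, and the pericyte markers to 871 and 1050.1 and 450 and 446. No gene of these 6 lists was at 0 in every C57 library. Within the Smoc2 cluster alone the ASC1 markers still went from 14955 and 18412 CPM in RT to 6000.0 and 7262 in COLD, and the Cthrc1-high markers from 79.6 and 105 to 957 and 714. The genes that act on or beside the collagens, given further below, were not read within the clusters. The part of these moving markers in the responses was not tested otherwise.

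The members took 2.54% to 3.51% of all UMIs in ASC1-like cells, 1.04% to 3.44% in ASC2-like, 2.71% to 5.00% in ASC3-like and 2.00% to 5.06% in Cthrc1-high cells of C57 mice. In VEC-like cells they took 0.0985% to 0.331%, in mural-like cells 0.294% to 0.856% and in Schwann-like cells 0.229% to 1.03%. In immune-like cells, a type that makes little collagen, they took 0.226% and 0.151% in RT, 0.434% and 0.366% in COLD and 0.527% and 0.583% in CL. This level was taken as a background for the values that follow, and it was lowest in RT and highest in CL. VEC-like cells lay below it in each C57 library. Whether it came from free RNA in the droplets, and its part in the changes of VEC-like, mural-like and Schwann-like cells, were not tested. At 10 CPM or more in at least 1 library, 23 of the 39 members were found in ASC1-like cells, 21 in ASC2-like, 24 in ASC3-like, 23 in Cthrc1-high, 17 in VEC-like, 23 in mural-like, 27 in Schwann-like and 20 in immune-like cells.

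The members were sorted by the class in which each was highest, so these sets cannot overlap. Of 33 members that reached 10 CPM in some class, 10 had their highest RT mean in ASC1-like cells among 9 classes, 8 in Schwann-like, 5 in perineurial-like, 3 in ASC3-like, 3 in Cilp/Thbs4-high, 3 in mural-like cells and 1 in ASC2-like cells. Cthrc1-high cells and proliferating or differentiating cells were not among the 9, since they were too few in RT. In the second RT library Col3a1 was higher in Cthrc1-high than in ASC3-like cells. How all genes were spread over the classes was not counted. Because the classes were cut from the same cells, these orders are descriptions without a test. Schwann-like and perineurial-like cells were few, and 3 UMIs were 14.97 and 25.01 CPM in the RT libraries of the first and 34.8 and 56.2 in those of the second, against 0.485 and 1.64 in ASC1-like cells. Of the members highest there, Col24a1, Col28a1, Col23a1 and Col9a2 in Schwann-like cells (RT means of 13.3, 13.3, 12.5 and 17.5 CPM) and Col11a1, Col8a2 and Col26a1 in perineurial-like cells (39.1, 28.1 and 43.3) lay near those limits, so that their place is uncertain. The ASC1-like set held the basement membrane chains Col4a1, Col4a2, Col4a3, Col4a4 and Col15a1, the beaded filament chains Col6a1, Col6a2, Col6a3 and Col6a6, and the fibrillar Col5a3. Col4a4 was as high in ASC3-like cells (means of 120.2 and 119.99 CPM).

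Col4a1, the common chain of the type IV sheet, had 2425 and 2559 CPM in RT, 1769 and 1876 in COLD and 2051 and 2609 in CL in ASC1-like cells. In ASC2-like cells it had 191 and 43.7 CPM in RT, 191 and 142 in COLD and 256 and 182 in CL, and in ASC3-like cells 855 and 528 CPM in RT, 1173 and 759 in COLD and 935 and 648 in CL. Its ASC1-like values lay above every value of the other subtypes. Col15a1, which links the sheet to the fibrils beneath it, had 1598 and 2183 CPM in RT, 1033 and 1041 in COLD and 1383 and 1439 in CL in ASC1-like cells. ASC3-like cells had 498 and 402 CPM in RT, 571 and 353 in COLD and 648 and 361 in CL, and ASC2-like cells had 41 and 27.4 CPM in RT, 57.2 and 13.5 in COLD and 60.8 and 30.9 in CL. The 3 subtypes did not overlap in it.

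The fibrillar chains had another order. Col1a1, the main chain of type I collagen, had 5819 and 4477 CPM in RT, 3726 and 3954 in COLD and 7558 and 7641 in CL in ASC3-like cells. ASC2-like cells had 4445 and 1359 CPM in RT, 2038 and 1473 in COLD and 5141 and 3977 in CL, and ASC1-like cells had 2517 and 461 CPM in RT, 3218 and 3707 in COLD and 2895 and 3075 in CL. The low value in each RT group was that of the second RT library. Col3a1, the chain of type III collagen, was the highest member of ASC1-like, ASC2-like and ASC3-like cells, with 13859 and 16194 CPM in RT, 10902 and 11128 in COLD and 22999 and 21487 in CL in ASC3-like cells. ASC2-like cells had 8156 and 3671 CPM in RT, 4558 and 3931 in COLD and 16869 and 10916 in CL, and ASC1-like cells had 9834 and 7644 CPM in RT, 8166 and 10575 in COLD and 9526 and 12944 in CL. The ASC2-like and ASC1-like cells overlapped in it. Col14a1, a fibril-associated chain, was the 1 member highest in ASC2-like cells, at 733 to 1084 CPM against 20.7 to 66.4 in ASC1-like cells. It was chosen for mention after its values were seen.

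**Figure D1:**
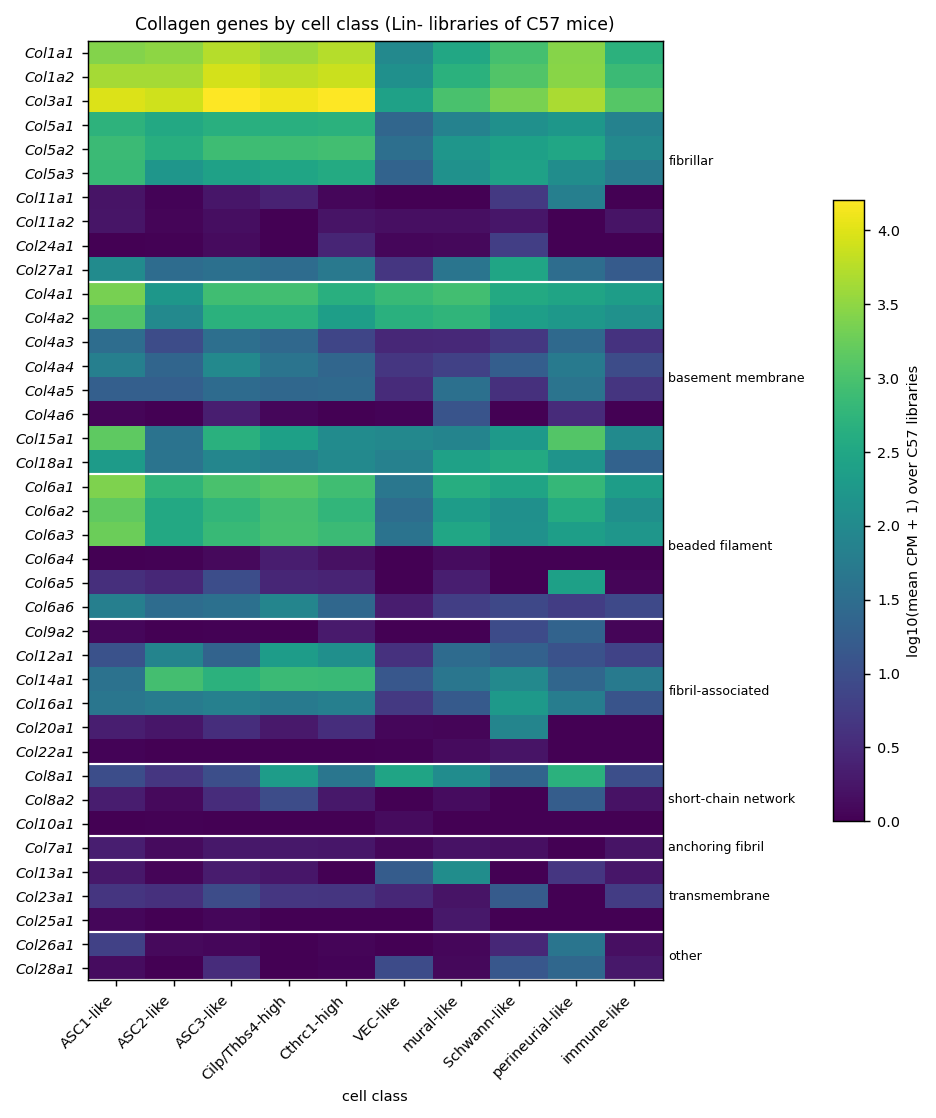
Level of the collagen genes (rows, grouped by polymer) in each cell class (columns) of the C57 Lin- libraries, as log10(mean CPM + 1). Each cell shows the mean over the C57 libraries, and Col4a1, Col4a2, Col15a1 and Col6a1 are highest in ASC1-like cells while Col20a1 stands out in Schwann-like and Col13a1 in mural-like cells.

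Summed by polymer, the fibrillar chains took 18339.7 and 12554 CPM in RT, 18174 and 22009 in COLD and 19425 and 23068 in CL in ASC1-like cells. The basement membrane chains took 5500.1 and 6598 in RT, 4027 and 4159 in COLD and 4904 and 5510.4 in CL in the same cells, so that COLD lay below both other groups. In ASC2-like cells, the basement membrane chains took 419 and 217 in RT, 455 and 285 in COLD and 575 and 379 in CL, well below ASC1-like cells in every library.

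**Figure D2:**
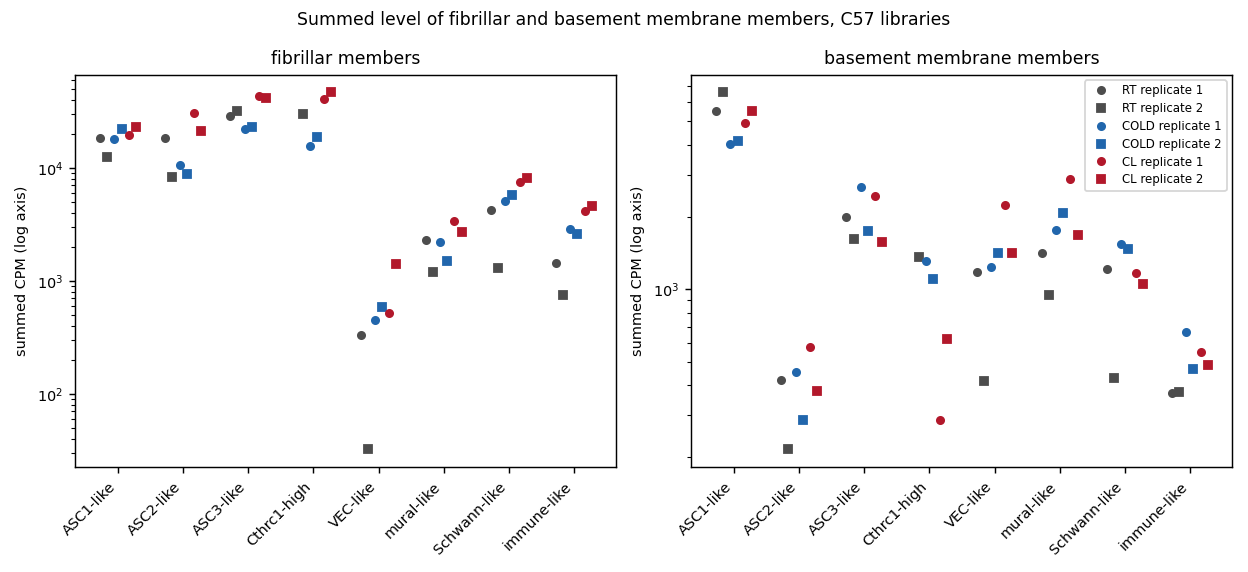
Summed level of the fibrillar (left) and basement membrane (right) chains in 8 cell classes, in CPM on a log axis, with 1 point per C57 library, coloured by treatment and shaped by replicate. The basement membrane sum of ASC1-like cells lies above that of every other class, and the fibrillar sum of VEC-like cells lies below that of immune-like cells.

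Col4a3, Col4a4, Col4a1 and Col6a6 are described at length below, and the stretches of DNA from which they are transcribed are shown first because the type IV genes are arranged in pairs. Col4a3 (chromosome 1, 82586921 to 82722059, plus strand, mm10) and Col4a4 (chromosome 1, 82448423 to 82586849, minus strand) start 72 bases apart and run away from each other, while Col4a1 and Col4a2 on chromosome 8, also on opposite strands, have starts 21 bases apart within each other's annotated span, so that they overlap there. Col4a5 and Col4a6 on chromosome X are also head to head, 1309 bases apart, while Col6a6 and Col6a5 on chromosome 9 are not. The windows below are RefSeq promoters of mm10, 250 bases before to 50 after the start, read 5′ to 3′ on the strand of the gene named. In the Col4a4 window the capitals run from the start of Col4a3 to that of Col4a4 (positions 179 to 251), in the Col4a1 window from the start of Col4a1 to that of Col4a2 (positions 251 to 272), and in the Col6a6 window they mark 2 GC boxes (GGGCGG on either strand).
Col4a4 promoter, chr1:82586800-82587099, minus strand: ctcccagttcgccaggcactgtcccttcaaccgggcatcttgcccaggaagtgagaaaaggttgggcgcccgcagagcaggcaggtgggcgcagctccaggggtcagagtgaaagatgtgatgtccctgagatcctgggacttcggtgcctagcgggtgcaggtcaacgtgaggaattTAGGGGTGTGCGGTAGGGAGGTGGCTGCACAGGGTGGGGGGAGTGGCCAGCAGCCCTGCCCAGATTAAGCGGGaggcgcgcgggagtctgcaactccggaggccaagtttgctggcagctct
Col4a1 promoter, chr8:11312777-11313076, minus strand: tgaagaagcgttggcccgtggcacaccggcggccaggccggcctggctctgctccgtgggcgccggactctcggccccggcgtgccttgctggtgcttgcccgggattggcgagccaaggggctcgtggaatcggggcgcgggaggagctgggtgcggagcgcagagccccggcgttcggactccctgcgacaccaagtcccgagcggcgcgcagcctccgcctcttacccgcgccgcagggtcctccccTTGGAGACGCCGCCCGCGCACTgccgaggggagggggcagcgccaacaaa
Col6a6 promoter, chr9:105828036-105828335, minus strand: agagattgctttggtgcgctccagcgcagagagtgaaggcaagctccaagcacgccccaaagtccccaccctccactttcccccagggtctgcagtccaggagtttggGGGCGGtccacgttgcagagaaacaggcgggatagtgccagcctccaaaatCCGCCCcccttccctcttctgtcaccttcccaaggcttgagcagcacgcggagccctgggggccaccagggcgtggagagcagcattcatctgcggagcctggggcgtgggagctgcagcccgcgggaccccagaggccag

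The GC content of these windows was 63.3%, 74% and 65%, against a median of 52.7% over 32851 promoters. Of 32 members with a window, 22 held a GC box (GGGCGG), 11 a CCAAT box (CCAAT) and 4 a TATA box (TATAAA), read on both strands, and of all promoters 35.7%, 37.4% and 13.6% did. The motif letters do not overlap each other, and a match is a description of the letters only.

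In COLD, Col6a6 fell within both clusters of the ASC1-like cells, and Col4a3 and Col4a4 fell within the Smoc2 cluster. The fits within a cluster were chosen after seeing the data. They were not repeated with DESeq2, with the replicate block or without the second RT library. In the Smoc2 cluster these 3 of 23 members tested were called, where 4.73% of genes were, and in the Cxcl9 cluster Col6a6 was the 1 of 22, where 0.681% of genes were. Col6a6 had 111 and 182 CPM in RT, 18 and 18.9 in COLD and 54.3 and 59.99 in CL in the Smoc2 cluster, with a log2 fold change in COLD of -2.83 ± 0.22 (edgeR adjusted p = 0.000384). In the Cxcl9 cluster it had 61.3 and 86.4 CPM in RT, 6.33 and 8 in COLD and 17.5 and 37.3 in CL, with -3.21 ± 0.52 (edgeR adjusted p = 0.0211). Both COLD values lay far below both RT values in each cluster, and the CL values lay between them. Col4a3 had 53.1 and 83.3 CPM in RT, 13.6 and 18.9 in COLD and 10.7 and 32.8 in CL in the Smoc2 cluster, with -1.93 ± 0.38 (edgeR adjusted p = 0.0182). Col4a4 had 99.7 and 144 CPM in RT, 44.6 and 60.6 in COLD and 46.5 and 57.1 in CL there, with -1.09 ± 0.23 (edgeR adjusted p = 0.0252). The Cxcl9 cluster held 42 and 63 cells in RT, and its values for both genes were lower in COLD too, with -2.499 ± 0.59 for Col4a3 (edgeR adjusted p = 0.107) and -1.62 ± 0.43 for Col4a4 (edgeR adjusted p = 0.164).

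Over both clusters together, Col4a3, Col4a4, Col4a5, Col6a5, Col6a6 and Col23a1 were lower in COLD, and Col8a1 and Col18a1 were higher. Of 26 members tested, 6 fell and 2 rose (edgeR quasi-likelihood test, Benjamini-Hochberg adjusted p under 0.05), where 14.4% of the 12197 genes tested were called, 915 upward and 836 downward. The other 13 members lay under the expression filter and are not covered by that count. The median log2 fold change of the tested members was -0.07, against 0.01 over all genes. By polymer, 1 of 7 tested basement membrane chains rose and 3 fell, 2 of 5 beaded filament chains fell, the 1 transmembrane chain tested fell, the 1 short-chain member tested rose, and none of 7 fibrillar and 4 fibril-associated chains was called.

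Col6a6, a minor chain that can take the place of Col6a3 in type VI collagen, had 108 and 176 CPM in RT, 8.14 and 9.1 in COLD and 33.6 and 52.1 in CL. Both COLD libraries lay far below both RT libraries, the CL libraries lay between them, and no groups overlapped. Its log2 fold change in COLD was -3.84 ± 0.27 (SE), with edgeR adjusted p = 0.000344. Col6a5, its neighbour on chromosome 9, was low, with 2.26 and 4.92 CPM in RT, 0.904 and 0.965 in COLD and 3.55 and 3.36 in CL, and a log2 fold change of -1.62 ± 0.46 (edgeR adjusted p = 0.0465).

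Col4a3 and Col4a4, which form with Col4a5 the heterotrimer best known from the filtration barrier of the kidney, fell together. Col4a3 had 52.6 and 81 CPM in RT, 7.1 and 10.1 in COLD and 8.22 and 26.2 in CL, and Col4a4 had 98.2 and 142 CPM in RT, 22.4 and 32.8 in COLD and 37.2 and 50.8 in CL. In both genes the COLD and CL libraries lay below both RT libraries. The log2 fold change in COLD was -2.75 ± 0.40 for Col4a3 (edgeR adjusted p = 0.0032) and -1.93 ± 0.26 for Col4a4 (edgeR adjusted p = 0.00249). Col4a5 had 21.8 and 35.2 CPM in RT, 10.1 and 8.05 in COLD and 19.4 and 13.6 in CL. Its COLD values lay below all others, and its log2 fold change was -1.47 ± 0.20 (edgeR adjusted p = 0.00247). Its partner Col4a6 was not tested, at no more than 0.547 CPM in any ASC1-like library of C57 mice.

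The major chains of the same sheet did not pass the test. Col4a2, the partner of Col4a1, had 1200.5 and 1467 CPM in RT, 946 and 959.7 in COLD and 1072 and 1204 in CL, with a log2 fold change in COLD of -0.34 ± 0.57 (edgeR adjusted p = 0.728), and Col4a1 had -0.33 ± 0.75 (edgeR adjusted p = 0.805). Col15a1 had -0.70 ± 0.61 (edgeR adjusted p = 0.481). In Col4a1, Col4a2 and Col15a1 both COLD values lay below both RT values, but the standard errors were nearly as large as or larger than the changes. The 95% interval of the log2 fold change of Col4a1 ran from -1.80 to 1.14, and whether its change differed from those of Col4a3 and Col4a4 was not tested.

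Col18a1, a basement membrane chain whose C-terminal fragment is endostatin, went the other way, with 104 and 130.3 CPM in RT, 239 and 231 in COLD and 333 and 168 in CL. The RT libraries were the lowest, and the log2 fold change in COLD was 1.16 ± 0.31 (edgeR adjusted p = 0.0377). Col8a1, a short-chain collagen of vessel walls and of remodelling tissue, had 4.26 and 6.06 CPM in RT, 24 and 10.3 in COLD and 7.42 and 1.89 in CL, and a log2 fold change of 1.87 ± 0.50 (edgeR adjusted p = 0.0381). Col23a1, a transmembrane collagen, had 4.67 and 8.75 CPM in RT, 1.68 and 2.22 in COLD and 1.18 and 1.93 in CL, and a log2 fold change of -1.51 ± 0.40 (edgeR adjusted p = 0.0369). In each of these genes the COLD and RT values did not overlap.

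No fibrillar chain passed the test. Col1a1 had 2517 and 461 CPM in RT, 3218 and 3707 in COLD and 2895 and 3075 in CL, so that 1 RT library lay far below the other, and its log2 fold change in COLD was 1.12 ± 1.05 (edgeR adjusted p = 0.515). Col3a1 had 0.18 ± 1.34 (edgeR adjusted p = 0.947), and its groups overlapped. Col5a3, a chain that joins type V fibrils, had 972 and 1052 CPM in RT, 367 and 386 in COLD and 596 and 757 in CL, with a log2 fold change of -1.30 ± 0.50. Its RT and COLD values did not overlap, but edgeR gave an adjusted p = 0.117, and 0.0428 without the second RT library. Col6a3, the long chain of the common type VI trimer, had 1618 and 2017 CPM in RT, 1522 and 1461 in COLD and 2292 and 2017 in CL, with a log2 fold change in COLD of -0.14 ± 0.67 (edgeR adjusted p = 0.916). Its COLD values lay below its RT values, and its CL values lay at or above them.

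**Figure D3:**
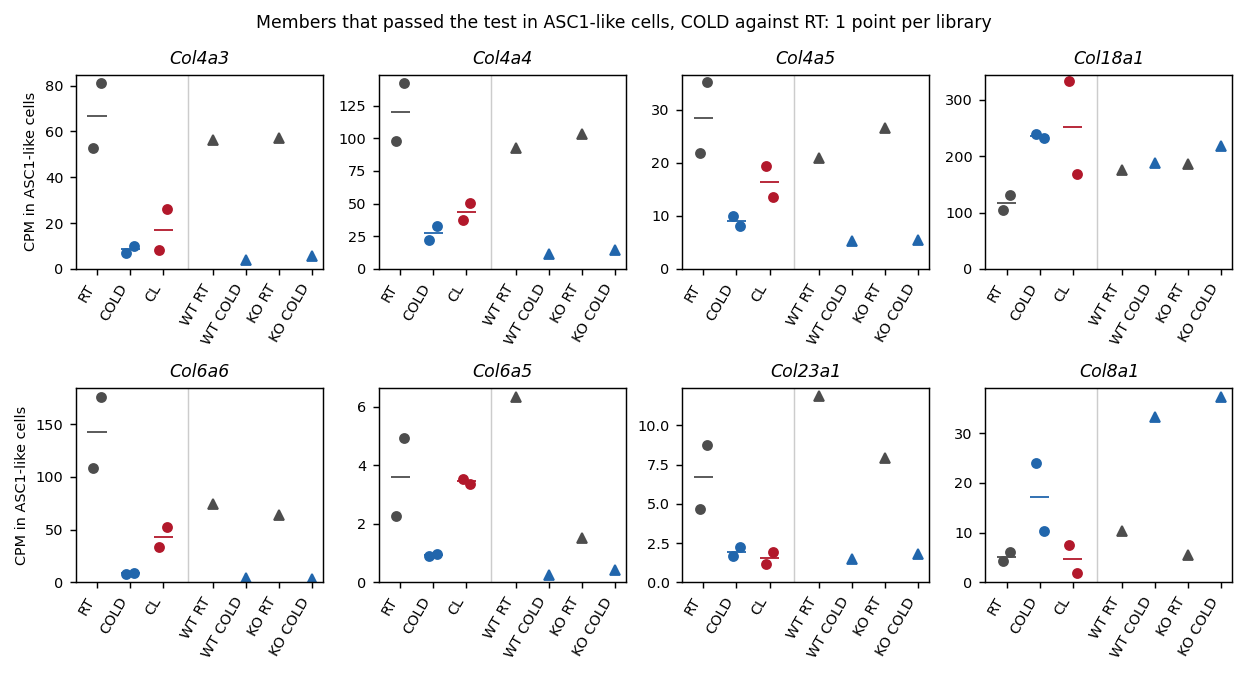
Level of the 8 collagen genes called in COLD against RT in ASC1-like cells, in CPM, with 1 point per library (circles C57 mice with the mean as a line, triangles the Adrb1 line). Col6a6 lies at 108 and 176 CPM in RT and at 8.14 and 9.1 in COLD, and the COLD and RT circles of every gene shown are apart.

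The calls were not equally firm. Without the second RT library the median of the members in COLD was -0.27. It was 0.12 without the first RT library and 0.19 without the expression filter, so that its sign was not stable. With the replicate block Col12a1, a fibril-associated chain, was called as well, upward at 0.97 (edgeR adjusted p = 0.0391), and with DESeq2 Col5a3 and Col15a1 were, downward at -1.30 and -0.70 (DESeq2 adjusted p = 0.00302 and 0.0406). Col18a1, Col6a5 and Col23a1 lost their call whenever a RT or COLD library was left out, and also at the coarser clustering of resolution 0.5. Col8a1 lost it without the first COLD or either RT library. With DESeq2 Col6a5 and Col23a1 were not called either, and with an unnamed neighbouring cluster added Col18a1, Col6a5 and Col8a1 were not. The other members called over both clusters were called in neither alone. Col4a5 had -1.02 in the Smoc2 cluster (edgeR adjusted p = 0.0717) and -0.62 in the Cxcl9 cluster (edgeR adjusted p = 0.811). Col18a1 had 0.91 (edgeR adjusted p = 0.186) and 0.89 (edgeR adjusted p = 0.347). Col8a1 had 0.33 (edgeR adjusted p = 0.823), far from its 1.87 over both clusters, and 2.83 (edgeR adjusted p = 0.512). Col6a5 and Col23a1 lay under the expression filter in both.

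In CL, Col6a6 was the 1 member of 23 called in the Smoc2 cluster, where 0.567% of genes were, with a log2 fold change of -1.10 ± 0.20 (edgeR adjusted p = 0.0355). In the Cxcl9 cluster edgeR called 0 members and 0.132% of genes, and 5 members and 838 genes had an unadjusted p under 0.05. Over both clusters 1 of 26 members was called, where 0.935% of genes were. Col6a6 fell by 1.42 on the log2 scale (SE 0.25, edgeR adjusted p = 0.0381), and lost that call without either RT library or the first CL library. The COLD and CL comparisons share the RT libraries. Col4a3 and Col4a4 had -1.53 ± 0.41 (edgeR adjusted p = 0.156) and -1.18 ± 0.27 (edgeR adjusted p = 0.0953). With the replicate number as a block, which in this study marks an experiment, both were called as well, at -1.67 and -1.25 (edgeR). With that block 3 members were called, where 260 of 12197 genes were. The members' median was 0.24 in CL, against 0.00 over all genes, and -0.03 without the second RT library. Without the first it was 0.41, and Col1a1 and Col14a1 then stood at 3.22 and 1.99.

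Set directly against COLD, CL differed in 1 member in ASC1-like cells, where 0.361% of genes did. Col6a6 was higher in CL, with a log2 difference of 2.41 ± 0.27 (edgeR adjusted p = 0.0152), a call that was lost without either COLD library and within either cluster alone. In the Cxcl9 cluster Col14a1 was called instead, higher in CL at 1.31 (edgeR adjusted p = 0.0476), where 0.152% of genes were. In the Smoc2 cluster edgeR called 0 members and 0.00961% of genes, and 4 members and 950 genes had an unadjusted p under 0.05. With the replicate block Col8a1 was called too, lower in CL at -1.95 (edgeR). The median of the members was 0.31, against 0.00 over all genes, and 0.50 without the second COLD library.

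Col6a6 was also the 1 member that fell in COLD in ASC2-like cells (22 members tested, 0.733% of genes called) and in ASC3-like cells (24 members tested, 0.0475% of genes called). In ASC2-like cells it had 32.1 and 46.5 CPM in RT, 15.2 and 11.7 in COLD and 46.8 and 27.8 in CL, a log2 fold change in COLD of -1.45 ± 0.23 (edgeR adjusted p = 0.0288). In ASC3-like cells it had 44.6 and 63.3 CPM in RT, 15.6 and 12 in COLD and 38.6 and 34.6 in CL, a log2 fold change of -1.90 ± 0.24 (edgeR adjusted p = 0.0439). In both subtypes the COLD values lay below all others, and in both the call was lost without any 1 of the RT or COLD libraries. Col4a3 and Col4a4 did not pass the test there. Col4a4 had 72.8 and 167 CPM in RT, 86.7 and 98.6 in COLD and 64.2 and 82.9 in CL in ASC3-like cells. ASC2-like cells had 21.1 and 29.6 CPM in RT, 26.1 and 17.8 in COLD and 19.9 and 20.1 in CL. Col4a3 had 28.6 and 63.9 CPM in RT, 30.6 and 25 in COLD and 24.6 and 28.6 in CL in ASC3-like cells. ASC2-like cells had 10 and 11.5 CPM in RT, 7.13 and 10.5 in COLD and 4.55 and 6.41 in CL. The RT and COLD values of both genes overlapped in both subtypes.

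Other members did not pass in these subtypes. Col4a2 had 458 and 329 CPM in RT, 710.4 and 431 in COLD and 591 and 355 in CL in ASC3-like cells. ASC2-like cells had 99 and 36.5 CPM in RT, 124 and 67.9 in COLD and 147 and 87.7 in CL. Col5a3 had 294 and 196 CPM in RT, 265 and 159.6 in COLD and 453 and 178 in CL in ASC3-like cells. ASC2-like cells had 218 and 82.8 CPM in RT, 119 and 84.4 in COLD and 294 and 177 in CL. Col6a3 had 678 and 447 CPM in RT, 798 and 455 in COLD and 1263 and 523 in CL in ASC3-like cells. ASC2-like cells had 379.9 and 143 CPM in RT, 309.6 and 239 in COLD and 631 and 399 in CL. In these 3 genes the second RT library lay below the first in both subtypes, and RT and COLD overlapped in both.

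In COLD the median log2 fold change of the members was -0.26 in ASC2-like cells and -0.15 in ASC3-like cells, against 0.00 over all genes in both, and -0.71 and -0.41 without the second RT library. Without the first RT library it was 0.53 and 0.12, so that the sign of the median depended on which RT library was used. Col4a1 in ASC2-like cells then stood at 2.30. Marker genes moved in these subtypes too. The 8 Cthrc1-high markers summed to 256 and 499 CPM in RT, 168 and 114 in COLD and 881 and 573 in CL in ASC2-like cells, where 2 of them were at 0 in all C57 libraries, and to 66.1 and 116 in RT, 418 and 234 in COLD and 1336 and 440.2 in CL in ASC3-like cells. The 10 ASC3 markers of ASC3-like cells summed to 5118 and 8198 in RT, 3930.4 and 5348 in COLD and 1378 and 4653 in CL, and their ASC2 markers to 1082 and 987, 1914 and 1816, and 1800.2 and 1684 in the same order. In ASC2-like cells the proliferating markers summed to 13.9 and 14.5 in RT, 108 and 39.5 in COLD and 117 and 25.1 in CL, and the genes of differentiating adipocytes to 39.9 and 27.8, 369 and 128, and 409.9 and 95.4. Their part in the members' changes was not tested. In CL the median of the members was 0.59 and 0.48, against -0.01 over all genes in both, and 0.06 and 0.05 without the second RT library. Without the first it was 1.40 and 0.81. With both RT libraries no member was called in CL against RT in either subtype. In ASC2-like cells edgeR called 0.0186% of genes, 2 members and 759 genes had an unadjusted p under 0.05, and DESeq2 called no member. In ASC3-like cells edgeR called 0.038% of genes, 0 members and 702 genes had an unadjusted p under 0.05, and DESeq2 called no member.

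Nor was a member called in CL against COLD. In ASC2-like cells edgeR called 0.0928% of genes, 5 members and 748 genes had an unadjusted p under 0.05, and DESeq2 called Col3a1 and Col6a6. In ASC3-like cells edgeR called 0% of genes, 5 members and 427 genes had an unadjusted p under 0.05, and DESeq2 called 0 members and 9 genes. With the replicate block edgeR called Col6a6 in both subtypes, higher in CL at 1.54 and 1.57, and Col16a1 in ASC2-like cells at 0.88. The median of the members was 0.89 in ASC2-like cells and 0.62 in ASC3-like cells, against -0.01 and 0.00 over all genes, and 0.31 in ASC3-like cells without the first CL library.

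Whether the subtypes responded differently was tested in a class by treatment term with the library as a block. For COLD, 6 of 25 members differed between ASC2-like and ASC1-like cells, where 10.3% of genes did, and 4 of 25 between ASC3-like and ASC1-like cells, where 5.43% did. The response of Col4a3 in ASC2-like cells lay 2.59 ± 0.34 above that in ASC1-like cells on the log2 scale (edgeR adjusted p = 0.00016), and in ASC3-like cells 2.20 ± 0.39 above it (edgeR adjusted p = 0.00901). For Col4a4 the differences were 1.80 ± 0.27 (edgeR adjusted p = 0.000538) and 1.78 ± 0.22 (edgeR adjusted p = 0.00104). The contrast with ASC2-like cells was also made for each ASC1-like cluster alone. Against the Smoc2 cluster 3 of 23 members differed in COLD, where 4.4% of genes did, namely Col4a3 at 1.70, Col6a6 at 1.37 and Col18a1 at -1.35 (edgeR adjusted p = 0.0124, 0.0209 and 0.000887). Against the Cxcl9 cluster 2 did, where 1.52% of genes did, namely Col4a3 at 2.27 and Col18a1 at -1.38 (edgeR adjusted p = 0.0305 and 0.0301). The difference of Col4a4 was not called within either cluster, at 0.92 and 1.43 (edgeR adjusted p = 0.0525 and 0.133). For ASC3-like cells, 2 of 25 members differed from the Smoc2 cluster, where 2.36% of genes did, namely Col4a4 at 0.92 and Col18a1 at -0.98 (edgeR adjusted p = 0.0483 and 0.0305). From the Cxcl9 cluster edgeR called 0 members and 0.481% of genes, and 6 members and 1069 genes had an unadjusted p under 0.05.

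The difference of Col4a3 to ASC3-like cells was lost within either cluster and without the first RT or the first COLD library, at 1.92 and 1.87 (edgeR adjusted p = 0.0721 and 0.0895).

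Col6a6, which fell in all 3 subtypes, had a larger fall over both clusters of the ASC1-like cells, with differences of 2.40 ± 0.37 to ASC2-like (edgeR adjusted p = 0.000584) and 1.93 ± 0.34 to ASC3-like cells (edgeR adjusted p = 0.00905). Col18a1 differed in the other direction, by -1.56 ± 0.21 in ASC2-like (edgeR adjusted p = 0.000204) and -1.22 ± 0.23 in ASC3-like cells (edgeR adjusted p = 0.0123). It had 39 and 38.2 CPM in RT, 33.4 and 23.7 in COLD and 75.5 and 31.3 in CL in ASC2-like cells. ASC3-like cells had 64.9 and 85.4 CPM in RT, 86.1 and 54.3 in COLD and 156 and 65.6 in CL, and the gene was not called in either. Col1a1 and the fibril-associated Col16a1 differed between ASC2-like and ASC1-like cells, by -2.22 ± 0.60 (edgeR adjusted p = 0.0271) and -0.84 ± 0.19 (edgeR adjusted p = 0.0105). Neither was called within a subtype in COLD against RT in the main fit. The difference of Col6a6 to ASC3-like cells was lost within either cluster and without either COLD library, and that of Col18a1 to ASC3-like cells without either RT or the second COLD library. Those of Col1a1 and Col16a1 were lost within either cluster. That of Col1a1 was also lost at resolution 0.5 and without either COLD library, and that of Col16a1 at resolution 0.5 and without the first RT or the second COLD library.

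For CL, Col6a6 was the 1 member that differed between ASC2-like and ASC1-like cells, by 1.40 ± 0.29 (edgeR adjusted p = 0.0275), where 0.813% of genes did. The difference was lost without the second RT library. It was called against the Smoc2 cluster alone, at 1.08 (edgeR adjusted p = 0.0466), where 0.429% of genes were. Against the Cxcl9 cluster alone edgeR called 0 members and 0.339% of genes, and 6 members and 808 genes had an unadjusted p under 0.05. Between ASC3-like and ASC1-like cells edgeR called 0 members and 0.115% of genes, 5 members and 839 genes had an unadjusted p under 0.05, and DESeq2 was not run for these terms. Within the Smoc2 and Cxcl9 clusters edgeR called 0 members and 0.233% and 0.281% of genes, 3 and 2 members had an unadjusted p under 0.05, and 750 and 693 genes did.

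**Figure D4:**
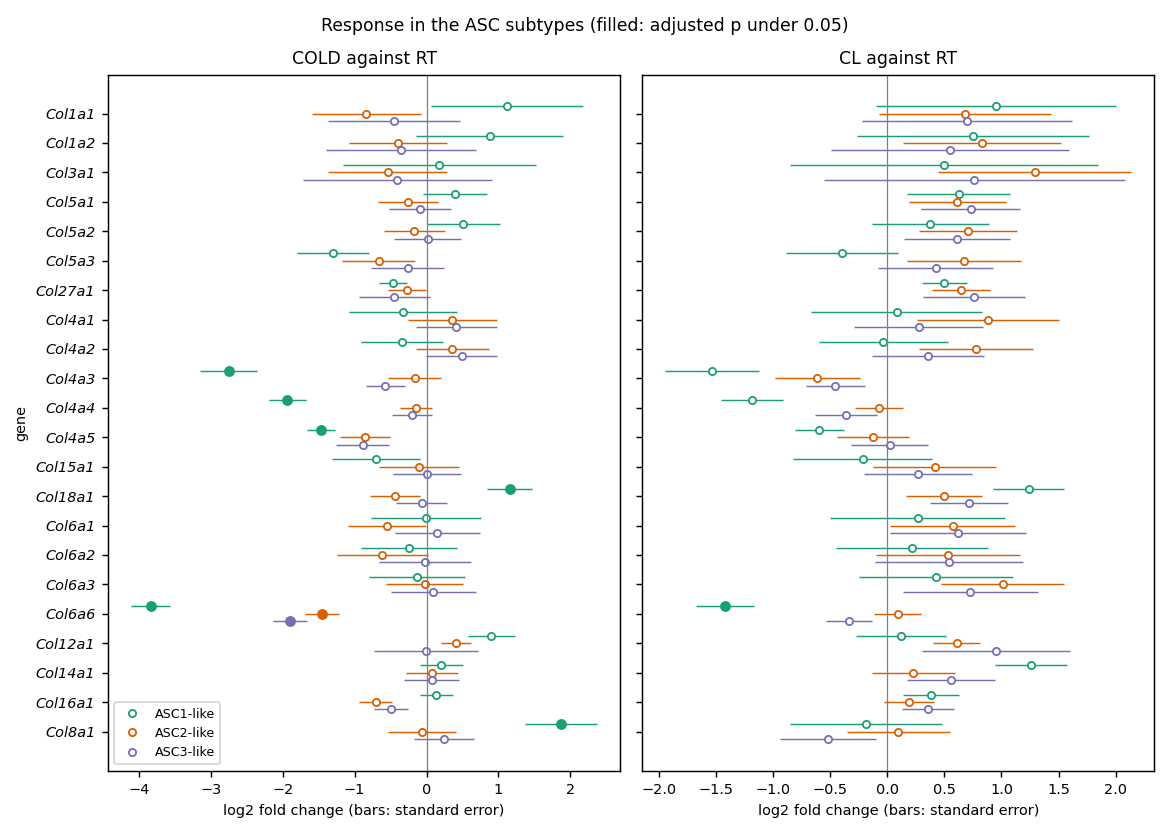
Log2 fold change (edgeR) of the collagen genes shown, in COLD against RT (left) and CL against RT (right), in ASC1-like, ASC2-like and ASC3-like cells. Bars are the standard error and filled points have an adjusted p under 0.05. In COLD, Col4a3 and Col4a4 lie at -2.75 and -1.93 in ASC1-like cells and nearer to 0 in the other subtypes, while Col6a6 is filled and below 0 in all 3.

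Cthrc1-high cells were a cluster with Cthrc1 and Lrrc15 among its 10 leading genes, in which 4 of 8 Cthrc1-high markers and 7 of 10 ASC2 markers were raised. They numbered 46 in the second RT library, 68 and 130 in COLD and 1481 and 360 in CL. The first RT library had 5, so no value is given for it, and the levels are described without a test. Col1a1 had 2977 CPM in RT, 2567 and 2953 in COLD and 10423 and 8846 in CL. Col1a2, its partner in type I collagen, had 6781 in RT, 3832 and 4739 in COLD and 11132 and 10753 in CL. Both CL libraries lay above the other C57 values in these 2 genes. The RT library of Adrb1 WT, with 220 such cells, had 7034 CPM of Col1a1 and 10534 of Col1a2, close to CL, and 9987 CPM of the Cthrc1-high markers. That of KO, with 36 such cells, had 3667 and 6473 CPM of these genes and 2175 CPM of the markers. Col3a1 had 18482 in RT, 8089 and 9780.4 in COLD and 16589 and 25102 in CL, so that COLD was lowest. The basement membrane chains had CL lowest, with Col4a1 at 631 in RT, 679 and 574 in COLD and 71.8 and 294 in CL, and Col4a2 at 335, 318 and 281 and 50.7 and 156 in the same order. The 2 CL libraries also lay far apart from each other. The make-up of the class moved with the treatment. Its 8 Cthrc1-high markers summed to 1582 CPM in the second RT library, 727 and 686 in COLD and 4443 and 2053 in CL, so that in COLD they lay below those of ASC1-like cells. Its ASC2 markers summed to 7321 in RT, 8603 and 8556 in COLD and 5211 and 8288 in CL, and its proliferating markers to 1330, 3503 and 2123, and 1258 and 779. Their part in these levels was not tested.

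VEC-like cells joined clusters whose mixture differed between libraries, and its part in the levels was not tested. The cluster led by Gpihbp1 and Aplnr held 663 and 184 cells in RT, 493 and 195 in COLD and 871 and 27 in CL. That led by Stmn2 and Sox17 held 278 and 306, 384 and 251, and 1159 and 103 in the same order. That led by Vwf and Selp held 76 and 96, 129 and 135, and 266 and 72. In VEC-like cells the sheet of the vessel wall led. Col4a1 had 626 and 127 CPM in RT, 635 and 757 in COLD and 1179.9 and 726 in CL, Col4a2 had 451 and 211 CPM in RT, 474 and 488 in COLD and 794 and 421 in CL, and Col8a1, which is known from the subendothelium, had 203 and 475 CPM in RT, 245 and 333 in COLD and 194 and 239 in CL. The second RT library was the lowest for the type IV chains and the highest for Col8a1. Of the members, 5 lay above immune-like cells in all 6 libraries, namely Col4a2, Col8a1, Col13a1, Col18a1 and Col28a1. The share of all genes that did so was not counted, so the number says nothing of collagens as a set. The summed fibrillar chains lay below those of immune-like cells in each of the 6. VEC-like cells also carried 40489.9 and 60717 CPM of differentiating adipocyte genes in RT, 52862 and 50977 in COLD and 42980.0 and 35103 in CL. Erythroid genes summed to 3445 and 625 in RT, 3503 and 5296 in COLD and 5123 and 1727 in CL, lowest in the second RT library, and proliferating markers to 283 and 300.2, 299.8 and 262, and 683 and 504. Their part in the levels was not tested. No member of 17 was called. In COLD edgeR called 0% of genes, 4 members and 923 genes had an unadjusted p under 0.05, and DESeq2 called 0 members and 31 genes. In CL edgeR called 0% of genes, 6 members and 738 genes had an unadjusted p under 0.05, and DESeq2 called 0 members and 8 genes. The median of the members was 0.90 in COLD and 1.31 in CL, against 0.02 and 0.01 over all genes. It was 0.33 and 0.69 without the second RT library. Without the first RT library it was 2.03 in COLD and 2.67 in CL. Without the top 6% of doublet scores it was -0.24 in COLD and 0.43 in CL. Another unnamed cluster, of 4813 cells and led by Hbb-bs and Hba-a2, had 8 of 8 VEC markers raised and was left out of the class. It had 99.8% of its cells in a VEC-like cluster at resolution 0.5, the ground on which the Cxcl9 cluster was joined to ASC1-like cells. The 2 clusters were thus not treated alike. Its short-chain members, Col8a1 among them, summed to 0 and 31.8 CPM in RT, 4.9 and 18.2 in COLD and 15.6 and 71.7 in CL. With this cluster added edgeR called 0 of 18 members, beside 24 of 10299 genes in COLD and 0 in CL. The median of the members was then 0.79 in COLD and 1.09 in CL. The ASC markers in VEC-like cells summed to 2683 and 1960 CPM in RT, 5458 and 6104 in COLD and 3075 and 3853 in CL, and their part in the medians was not tested.

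Mural-like cells, the pericytes and smooth muscle cells around vessels, had 1112 and 648 CPM in RT, 912 and 628 in COLD and 1278 and 1380.3 in CL of Col3a1. Col4a1 had 690.1 and 299 CPM in RT, 743 and 1052 in COLD and 1440.4 and 829.7 in CL, and Col4a2 had 492 and 344 CPM in RT, 574 and 681 in COLD and 866 and 447 in CL. In both type IV chains the lowest value was that of the second RT library, and both CL values of Col3a1 lay above all other mural-like values. Col3a1 lay above immune-like cells in 2 of the 6 libraries, and below them in both CL libraries (1735 and 2318 CPM). In the first RT library erythroid genes summed to 2851 CPM, against at most 245 in the others. Mural-like cells were also the class with the most Col4a6, at 7.99 to 16.2 CPM, beside Col4a5 at 18.4 to 49.4. In all 6 libraries 12 members lay above immune-like cells, and the share of all genes that did was not counted here either. Col13a1, a transmembrane collagen chosen for mention after its values were seen, had 151 and 179 CPM in RT, 108 and 139 in COLD and 51.5 and 45.9 in CL. Both CL libraries lay below all others, its log2 fold change in CL was -1.60 ± 0.25 with edgeR adjusted p = 0.0564, and with the replicate block it was called at -1.61 (edgeR). Pericyte-like cells made up 333 of 488 and 427 of 671 mural-like cells in RT, 245 of 584 and 254 of 502 in COLD and 226 of 414 and 133 of 346 in CL. Within pericyte-like cells Col13a1 had 271 and 307 CPM in RT, 298 and 295 in COLD and 81.3 and 130 in CL, and in the others, VSMC-like cells, it had at most 21.7. Both CL values of pericyte-like cells lay below all others, and the gene was not called in them.

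No member of 21 was called in mural-like cells. In COLD edgeR called 0.161% of genes, 2 members and 865 genes had an unadjusted p under 0.05, and DESeq2 called 0 members. In CL edgeR called 0.0807% of genes, 11 members and 910 genes had an unadjusted p under 0.05, and DESeq2 called Col13a1 alone among the members. The median of the members was 0.37 in COLD and 1.03 in CL, against 0.00 over all genes, and -0.10 and 0.50 without the second RT library. Without the first RT library it was 1.03 and 1.55. The 8 ASC markers in mural-like cells summed to 1249 and 622 CPM in RT, 2044 and 1632 in COLD and 1924 and 1782 in CL, and the 8 proliferating markers to 24.3 and 20.7 in RT, 152 and 52.6 in COLD and 841 and 289 in CL. Their part in the medians was not tested. In pericyte-like cells alone Col18a1 was the 1 of 18 members called in CL, where 91 of 7111 genes were. Its log2 fold change was 1.88 ± 0.36 (edgeR adjusted p = 0.0315).

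Schwann-like cells, the glia of peripheral nerves, held a set of their own. Col20a1, a fibril-associated chain, had 105 and 192 CPM in RT, 28.8 and 29.3 in COLD and 59.2 and 65.3 in CL. Both COLD libraries lay below all others and both RT libraries above them, and Col20a1 was the 1 member of 17 that fell in COLD, where 0.854% of genes were called, with a log2 fold change of -2.27 ± 0.40 (edgeR adjusted p = 0.0144). The call was lost with DESeq2 and without the second RT library or either COLD library. In the same cells the 8 Schwann markers summed to 14120.3 and 30075 CPM in RT, 10646 and 12066 in COLD and 9046 and 19015 in CL, and the Cthrc1-high markers to 1086 and 421 in RT and 3657 and 3657 in COLD, with 3 of those 8 at 0 in all C57 libraries. Their part in the fall of Col20a1 was not tested. The members' median in COLD was 0.42, against 0.00 over all genes, and -0.05 without the second and 1.74 without the first RT library.

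In CL no member was called in Schwann-like cells, where edgeR called 0.0776% of genes, 5 members and 330 genes had an unadjusted p under 0.05, and DESeq2 called no member. The median was 0.53, against 0.00 over all genes, and -0.01 without the second and 1.88 without the first RT library. In COLD and in CL the median thus depended on which RT library was used. The 3 highest members were fibrillar. Col3a1 had 2101 and 230.0 CPM in RT, 1730.1 and 2177 in COLD and 3683 and 4047 in CL, Col1a2 had 695 and 246 CPM in RT, 1340.0 and 1391 in COLD and 1363 and 1873 in CL, and Col1a1 had 432 and 78.3 CPM in RT, 1196 and 1131 in COLD and 1324 and 1310.1 in CL. The second RT library was the lowest in each, and immune-like cells had 696 and 381 CPM in RT, 1249 and 1211 in COLD and 1735 and 2318 in CL of Col3a1. The 8 ASC markers in Schwann-like cells summed to 1497 and 490 CPM in RT, 1613 and 1114 in COLD and 2556 and 2757 in CL, and the ASC2 markers to 531 and 667, 630.2 and 497, and 903 and 2280.0 in the same order. The part of these markers and of free RNA in the levels was not tested. Col27a1, a fibrillar chain of cartilage, and Col16a1 stood out against other classes, at 141 to 501 and 145 to 224 CPM. Both were chosen for mention after their values were seen. With Col20a1 and 8 others they lay above immune-like cells in all 6 libraries, where the share of all genes was again not counted.

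**Figure D5:**
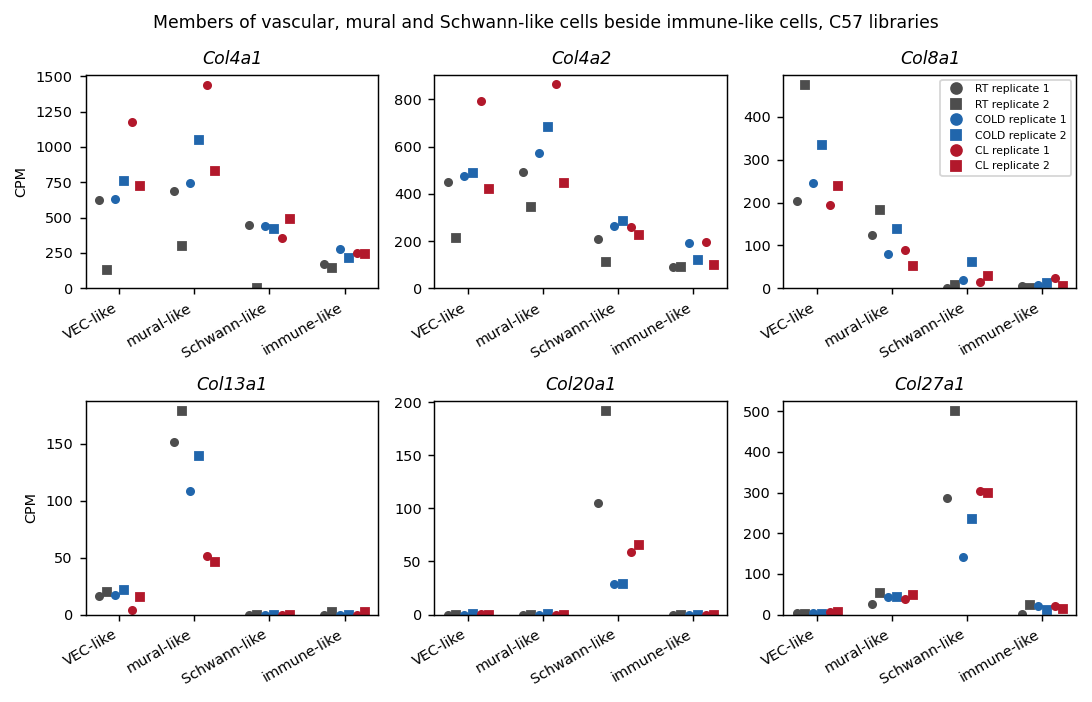
Level of 6 collagen genes in VEC-like, mural-like, Schwann-like and immune-like cells, in CPM, with 1 point per C57 library, coloured by treatment and shaped by replicate. Col20a1 of Schwann-like cells is lowest in COLD, Col13a1 of mural-like cells is lowest in CL, and the second RT library is low for Col4a1 in VEC-like, mural-like and Schwann-like cells.

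Genes that act on or beside the collagens were read against the same 14.4% of all genes called in COLD in ASC1-like cells. Of 26 tested genes of collagen biosynthesis, 2 rose and 3 fell in COLD, with a median of 0.42 against 0.01 over all genes. Colgalt2, a galactosyltransferase of hydroxylysine, had 36.2 and 51.3 CPM in RT, 6.17 and 4.33 in COLD and 15.9 and 14.7 in CL. Both COLD values lay far below RT, and its log2 fold change was -2.92 ± 0.21 (edgeR adjusted p = 0.000344). Tll1, a protease that trims procollagen, fell by 2.10 and Fkbp14 by 0.72 on the log2 scale (edgeR adjusted p = 0.0274 and 0.0422), and the hydroxylases P3h2 and Plod3 rose by 1.45 and 0.86 (edgeR adjusted p = 0.0114 and 0.00885). In CL, where 0.935% of all genes were called, 1 of the 26 was, again Colgalt2, at -1.30 ± 0.22 (edgeR adjusted p = 0.0286).

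Of 11 tested laminins and other basement membrane genes, 0 rose and 2 fell in COLD, where 14.4% of all genes were called, with a median of -0.62. Lama2 had 443 and 481 CPM in RT, 179 and 142 in COLD and 223 and 287 in CL, with a log2 fold change of -1.41 ± 0.36 (edgeR adjusted p = 0.0333), and Lamc3 had -1.34 ± 0.21 (edgeR adjusted p = 0.00485). Of 9 tested proteoglycans that bind fibrils, 1 rose and 2 fell, beside the same 14.4%, with a median of -1.25. Podn had 273 and 356 CPM in RT, 45 and 43.1 in COLD and 96.6 and 145 in CL, with a log2 fold change of -2.68 ± 0.31 (edgeR adjusted p = 0.00141), Prelp had -2.41 ± 0.43 (edgeR adjusted p = 0.00848), and Fmod rose from a low level with 2.47 ± 0.39 (edgeR adjusted p = 0.00467). Of 6 tested collagen receptors, Itga1, the alpha chain of an integrin for type IV collagen, fell by 0.68 (edgeR adjusted p = 0.0268), and the median was -0.31. In CL none of the laminin, proteoglycan or receptor genes passed in ASC1-like cells. In ASC2-like cells Podn fell in COLD, where 0.733% of all genes were called, and no gene of the 4 lists was called in CL, and in ASC3-like cells none was called in either comparison.

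The Adrb1 line gave a second set of COLD and RT libraries, with 1 library per group and so no replicate check. The targeted gene Adrb1 had 5.93 and 4.13 CPM in ASC1-like cells of WT in RT and COLD, and 0 and 0.547 in KO, where 3 UMIs would be 2.37 CPM in RT and 0.413 in COLD. The Cxcl9 cluster held 32.6% of the ASC1-like cells in RT and 67.1% in COLD in WT, and 45.9% and 68.9% in KO, so that the RT mixture differed from that of C57 mice. All 8 members called in ASC1-like cells of C57 mice in COLD had the same direction in WT and in KO. Of all 1751 genes called there, 88.4% had the same direction in WT and 87.7% in KO. Col6a6 had 74.6 CPM in RT and 3.82 in COLD in WT, and 63.8 and 3.38 in KO. Col4a3 had 56.3 CPM in RT and 3.86 in COLD in WT, and 57.3 and 5.46 in KO, and Col4a4 had 92.9 CPM in RT and 11.6 in COLD in WT, and 103 and 14.6 in KO. In all 3 genes the COLD value lay below the RT value in both genotypes, and the genotypes were close.

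Col8a1 had 10.4 CPM in RT and 33.1 in COLD in WT, and 5.41 and 37.3 in KO, and Col5a3 had 1721 CPM in RT and 380.4 in COLD in WT, and 1728 and 473 in KO. Col18a1, which rose in C57 mice, had 175 CPM in RT and 187 in COLD in WT, and 186 and 217 in KO, a small step beside those of the other genes. Col4a1 had 3479 CPM in RT and 2282 in COLD in WT, and 3496 and 2400.0 in KO, and Col1a1 had 2755 CPM in RT and 2762 in COLD in WT, and 2614 and 3641 in KO. The 1 member called in ASC2-like, ASC3-like and Schwann-like cells had the same direction in both genotypes. Of the 79, 5 and 44 genes called there, 78.5%, 100% and 95.5% had it in WT and 93.7%, 100% and 90.9% in KO. Col6a6 had 129 CPM in RT and 12.1 in COLD in WT, and 92 and 8.57 in KO in ASC2-like cells and 37.5 CPM in RT and 8.81 in COLD in WT, and 41.1 and 4.81 in KO in ASC3-like cells, and Col20a1 had 107 CPM in RT and 47.9 in COLD in WT, and 202 and 41.1 in KO in Schwann-like cells. COLD was the lower value in every pair. Col6a6 was also lower in COLD in Schwann-like cells, with log2 ratios of -6.58 in WT and -3.17 in KO. In C57 mice its mean there was 7.06 CPM. The RT libraries of this line also held a small unnamed cluster with much Col6a5 and Col6a6, described at the end. The part of such cells in the RT values of Col6a6 was not tested.

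Over the mean RT levels of 9 classes of C57 mice, the genes outside the family whose pattern was most like that of Col1a1 among 10082 were Serping1 (Pearson r = 0.993), Adamts2 (r = 0.989) and Twist2 (r = 0.986). Serping1 is a marker used to name the stromal classes, and Adamts2, a protease of procollagen, is on the biosynthesis list. The 9 classes come from the same libraries, so these values are descriptions.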

How the data were processed

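Lin- cells of iBAT were profiled with 10x 3′ kits. The deposited values are expected counts: the authors aligned reads with Cell Ranger 3.0.1 to mm10 and corrected the counts for free RNA with SoupX, using Fabp4 and Car3, so values need not be whole, and the correction itself can lower members that are common in free RNA. Here barcodes with at most 10% mitochondrial UMIs, at most 15000 UMIs and at least 100 genes were kept. Cells were clustered with scanpy 1.11.5 and leidenalg 0.10.2 (2000 variable genes without collagens or naming markers, 30 components, 30 neighbours, resolution 1), a class needed 20 cells in a library, and doublets were left in except in an alternative without the top 6% of doublet scores. Counts were summed per class and library, rounded, and tested in R 4.3.3 with edgeR 4.0.16 (TMM, filterByExpr, glmQLFTest, two-sided, Benjamini-Hochberg over all genes tested, threshold 0.05), the 6 C57 libraries in 1 fit. Standard errors were taken from the log2 fold change and its F value. Alternatives used DESeq2 1.42.0, no expression filter, the replicate block, resolution 0.5 and libraries left out.

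Named genes were the members past the threshold, the 3 highest members of VEC-like, mural-like, Schwann-like and Cthrc1-high cells, Col1a1, Col3a1, Col4a1, Col4a2, Col5a3, Col6a3, Col6a6 and Col15a1, and the type IV pairs. The members and lists were chosen with earlier results of these data known. Replicate numbers mark independent experiments per the study's methods. Deviations from the group means correlated at 0.130 between same-numbered RT and COLD, -0.0126 between RT and CL, and 0.292 between COLD and CL libraries of ASC1-like cells. Libraries are pools of mice, so p-values measure the spread between these libraries, which totalled 7860000 to 31330000 UMIs. The script for the tests was checked on simulated counts.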

Additional observations from a re-analysis of the deposited data

Results flagged for a closer look

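The responses of 6 collagen genes to COLD or CL differed between stromal subtypes in a test of the difference itself (edgeR class by treatment term, Benjamini-Hochberg adjusted). Each value is the log2 response of the second subtype minus that of ASC1-like cells. In COLD, ASC2-like cells differed by 1.80 (adjusted p = 0.000538) for Col4a4, 2.59 (adjusted p = 0.00016) for Col4a3 and 2.40 (adjusted p = 0.000584) for Col6a6, all of which fell more in ASC1-like cells. They differed by -1.56 (adjusted p = 0.000204) for Col18a1, -0.84 (adjusted p = 0.0105) for Col16a1 and -2.22 (adjusted p = 0.0271) for Col1a1 in the other direction. In COLD, ASC3-like cells differed by 1.78 (adjusted p = 0.00104) for Col4a4, 2.20 (adjusted p = 0.00901) for Col4a3, 1.93 (adjusted p = 0.00905) for Col6a6 and -1.22 (adjusted p = 0.0123) for Col18a1. In CL, ASC2-like cells differed by 1.40 (adjusted p = 0.0275) for Col6a6. The share of ASC1-like cells in the cluster led by Cxcl9 moved with the treatment as well. Against each ASC1-like cluster alone, the differences to ASC2-like cells in COLD were called for Col4a3 and Col18a1. Those of Col4a4, Col1a1 and Col16a1 were called against neither. Those of Col6a6 to ASC2-like cells, in COLD and in CL, were lost against the Cxcl9 cluster alone. No difference to ASC3-like cells was called against the Cxcl9 cluster, and those of Col4a3 and Col6a6 were lost against the Smoc2 cluster as well.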

How the results depend on the processing

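None of the values recomputed changed direction where it had been called. Of the values of single genes, 590 kept their side of the threshold, 79 kept the direction and lost the call, and 11 gained a call. Direction was not compared where neither fit made a call. Of the counts of called collagen genes, 111 stayed within 1.5 times the reported count and 75 moved further. With DESeq2, the count was 2 for CL against RT and 2 for CL against COLD in ASC1-like cells. All genes called there numbered 258 and 109 of 12197. It was 2 for CL against COLD in ASC2-like cells, beside 41 of 10776 genes. It was 1 for CL in mural-like cells, beside 67 of 9913, and 0 for COLD in Schwann-like cells, beside 25 of 5152. Without the expression filter, ASC1-like cells had 5 in CL against RT and 8 in CL against COLD, beside 708 and 701 of 19292 genes. ASC2-like cells had 2 in COLD, 1 in CL and 5 in CL against COLD, beside 433, 227 and 231 of 17745. ASC3-like cells had 2 in CL against COLD, beside 119 of 17184. VEC-like cells had 9 in COLD and 9 in CL, beside 295 and 216 of 16904. Mural-like cells had 1 and 9, beside 326 and 349 of 16634, and Schwann-like cells 3 and 1, beside 141 and 62 of 14298. The differences between subtypes then numbered 3 for CL in ASC2-like cells, beside 328 of 20084 genes. They numbered 8 for COLD and 3 for CL in ASC3-like cells, beside 1090 and 216 of 19814. The median of all genes in ASC1-like cells in COLD moved to 0.11 without that filter. With the replicate block the counts were 3 and 2 for CL against RT and CL against COLD in ASC1-like cells. All genes called there numbered 260 and 96 of 12197. The counts were 2 and 1 for CL against COLD in ASC2-like and ASC3-like cells, beside 82 of 10776 and 16 of 10524 genes. Mural-like cells had 1 in CL, beside 84 of 9913, and the block moved no other count by more than 1.5 times. Without likely doublets the count was 1 for CL against COLD in ASC2-like cells, beside 22 of 10669 genes. It was 2 for COLD in Schwann-like cells, beside 35 of 4493. At resolution 0.5, ASC1-like cells had 5 in COLD, 2 in CL and 2 in CL against COLD. All genes called there numbered 1710, 179 and 54 of 12558. Some alternatives were chosen after seeing the data. The cluster that held most RT cells alone gave 3 in COLD and 0 in CL against COLD, beside 492 and 1 of 10405 genes. The cluster led by Cxcl9 alone gave 1 in COLD and 0 in CL, beside 67 and 13 of 9839. The addition of an unnamed neighbouring cluster gave 5, 2 and 2, beside 1644, 183 and 45 of 12579. Pericyte-like cells alone gave 1 in CL, beside 91 of 7111. With each of the first 2 clusters in place of ASC1-like cells, the differences to ASC2-like cells numbered 3 and 2 in COLD. Of all genes, 492 of 11192 and 170 of 11193 differed there. With the second cluster they numbered 0 in CL, beside 38 of 11193 genes. The differences to ASC3-like cells numbered 2 and 0 in COLD, beside 264 of 11163 and 53 of 11027 genes. With each library left out in turn, the counts ran from 4 to 5 for COLD, 0 to 3 for CL and 0 to 2 for CL against COLD in ASC1-like cells, from 0 to 1, 0 to 6 and 0 to 0 in ASC2-like cells, and from 0 to 0, 0 to 0 and 0 to 2 in ASC3-like cells. They ran from 0 to 0 in VEC-like cells in both, from 0 to 0 in COLD and 0 to 7 in CL in mural-like cells, and from 0 to 8 in both in Schwann-like cells. The differences from ASC1-like cells ran from 4 to 9 in COLD and 0 to 8 in CL for ASC2-like cells, and from 2 to 4 and 0 to 3 for ASC3-like cells. A lone library was then assumed to vary like the other groups. The shares of all genes called in these fits are not given, so these ranges say nothing of collagens as a set. The cause of these moves was not tested.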

Other observations

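A small unnamed cluster of 338 cells held 284 cells of the WT RT library and 44 of the KO RT library of the Adrb1 line. Col6a5 had 2822 and 906 CPM in it in these libraries, and Col6a6 662 and 173. In ASC2-like cells of the same line Col6a5 had 388 CPM in RT and 19.9 in COLD in WT, and 129.8 and 7.95 in KO, where C57 mice had 0.765 to 4.58 CPM. Sex, line and tamoxifen cannot be told apart in the difference to C57 mice, and in RT the kit differs as well. Within the Adrb1 line kit and temperature cannot be told apart.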
